A study of Mus musculus with 9 samples.

Results

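Hox genes encode homeodomain transcription factors that mark where along the head-to-tail axis a cell arose. Their RNA was read here in material lysed from the lumen of the mouse thoracic aorta, with and without the transcription factors MEF2A, MEF2C and MEF2D. That material also carried markers of smooth muscle and brown fat, so the values are not those of endothelial cells alone. Members were chosen by name from the array's annotation, as every symbol made of Hoxa, Hoxb, Hoxc or Hoxd and a paralog number. The annotation held 38 such symbols, and 33 of them had a transcript cluster (the array's unit of measurement) of their own, out of 30142 named genes. Where a gene has several clusters the one with the highest mean over all arrays is taken, but each of the 33 genes lay on exactly 1 cluster, so that step selected nothing. The 33 genes comprised 8 Hoxa, 9 Hoxb, 9 Hoxc and 7 Hoxd genes. Hoxa7, Hoxa9, Hoxb4, Hoxd3 and Hoxd4 appeared only on clusters that list several symbols and have no values of their own.

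The 9 arrays came from 5 ACDiEKO and 4 control mice, all female, with 1 thoracic aorta per array. ACDiEKO mice were Cdh5-CreERT2(+) with floxed Mef2a, Mef2c and Mef2d (f/f at each gene). Controls were Cdh5-CreERT2(-) littermates with the same floxed alleles. Both groups received 5 daily tamoxifen injections, at 10 weeks of age. Cdh5 drives the recombinase in endothelial cells, and controls lacked the recombinase altogether, so an effect of the recombinase itself cannot be told apart from loss of the MEF2 genes. The time from first injection to harvest is 7 days in the series text and 14 days in the sample protocols, and is not settled here. TRIzol, a lysis reagent, was flushed through the vessel lumen. Clariom D arrays, which cover coding and non-coding transcripts, were run on 5 ng RNA per aorta.

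Mammalian Hox genes sit in clusters, and within a cluster the order of the genes follows the order of their expression along the body axis: low paralog numbers anteriorly, high numbers posteriorly. HOX proteins bind DNA weakly alone and gain specificity by pairing with the TALE homeodomain proteins PBX and MEIS. The pattern is set in the embryo by retinoic acid and CDX factors, is held by Polycomb and trithorax chromatin complexes, and persists in adult vessels, where cells of different arteries keep different Hox profiles.

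Values are the authors' deposited log2 values, and a gene was tested where at least 4 of the 9 arrays lay above 6.165, the median of the whole table. ACDiEKO replicates 1 and 2 were almost the same result (robust SD of their difference 0.0539 and correlation 0.9991, against 0.23 to 0.339 and 0.9903 to 0.9946 for the other pairs of arrays of 1 group). They were averaged and counted as 1 sample, so 4 samples stood on each side of every test. The titles number 2 control arrays 3, and the second is called control replicate 4. Array medians ran from 6.13 to 6.15 in ACDiEKO and from 6.17 to 6.23 in controls. None of the floxed genes passed the test: Mef2a differed by 0.12 (adjusted p = 0.441), Mef2c by 0.06 (adjusted p = 0.66) and Mef2d by 0.23 (adjusted p = 0.111). Where their probes lie relative to the deleted exons was not analysed here, so these values check no genotype. The endothelial markers Pecam1, Cdh5 and Vwf were all above the filter. Cdh5 and Vwf did not pass the test, but Pecam1 was lower in ACDiEKO without overlap (-0.37, limma, adjusted p = 0.0184). The mean of 10 endothelial markers ran from 13.28 to 13.80 in ACDiEKO and from 13.39 to 13.80 in controls. Of these 10, 3 rose and 3 fell, so the like means do not show that endothelial content was alike.

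Of the 33 Hox genes, 14 passed the filter and were tested, and all 14 lay above it in all 9 arrays. Among these 14, 7 fell in ACDiEKO and none rose (limma, Benjamini-Hochberg adjusted p under 0.05 over all 16403 tested genes). At an unadjusted p under 0.05, 9 of the 14 were lower and 0 were higher, against 17.1% lower and 15.6% higher (32.7% in all) of all tested genes. The 7 that fell were Hoxa2, Hoxa3, Hoxa5, Hoxa6, Hoxb5, Hoxb6 and Hoxb7. Over all tested genes 16.3% passed, 7.33% as lower and 8.92% as higher in ACDiEKO. The same 7 Hox genes were the ones whose samples did not overlap between groups with ACDiEKO lower, which held for 11.0% of all tested genes. The largest differences in size were those of Hoxb5 (-1.26) and Hoxb6 (-1.21), which ranked 278 and 306 from the most negative of the 16403 differences. The aorta lysate is a bulk sample, so fewer cells of a type that uses Hox genes cannot be told apart from less Hox RNA per cell.

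**Figure D1:**
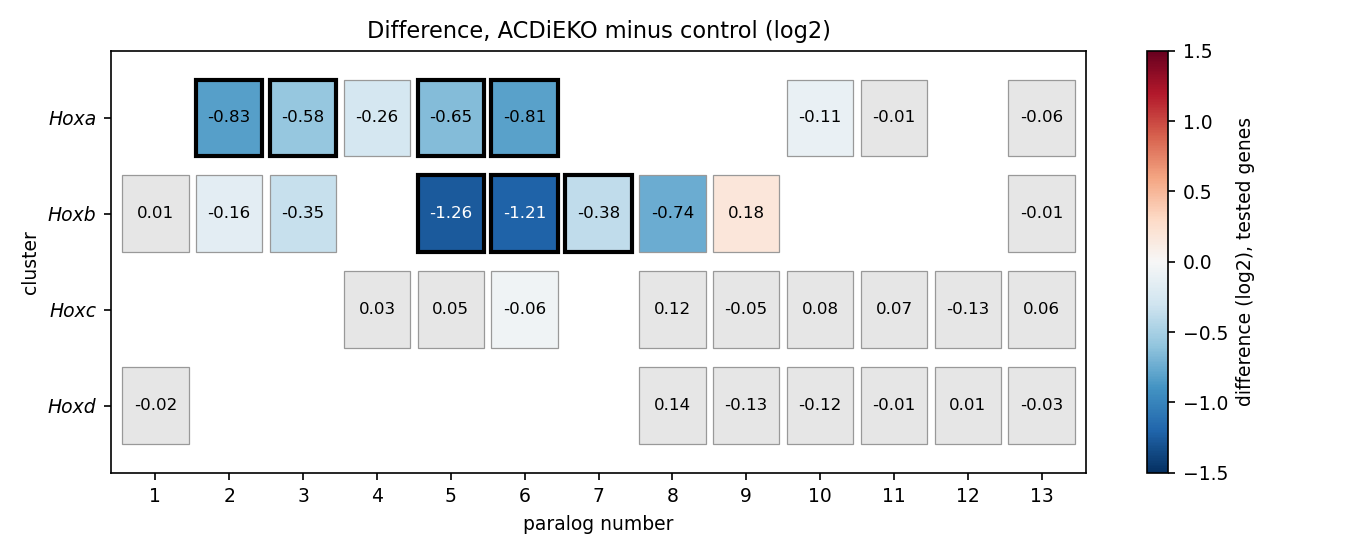
Difference in deposited log2 value, ACDiEKO minus control, for each of the 33 Hox genes, by cluster (rows) and paralog number (columns). Tested genes are coloured by their difference, genes below the filter are grey, and thick frames mark the 7 genes that passed the test, which lie between paralogs 2 and 7 of Hoxa and Hoxb.

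Most Hox genes are controlled by regulatory DNA spread across their cluster, but a promoter window shows the start of the gene itself. RefSeq windows (GRCm38.p6) of 300 bases, with 250 before and 50 after the transcript start, were at hand for 17 of the 33 genes, and for 4 of the 7 that fell, all in the Hoxa cluster. No window was at hand for Hoxb5, Hoxb6 and Hoxb7. The 4 shown are those of the genes that fell and had a window. They are Hoxa2 at chr6:52164782-52165081, Hoxa5 at chr6:52204538-52204837, Hoxa6 at chr6:52208623-52208922 and Hoxa3 at chr6:52213018-52213317, all on the minus strand. Capitals mark TAAT or its reverse complement ATTA, the core that many homeodomains bind.
Hoxa2: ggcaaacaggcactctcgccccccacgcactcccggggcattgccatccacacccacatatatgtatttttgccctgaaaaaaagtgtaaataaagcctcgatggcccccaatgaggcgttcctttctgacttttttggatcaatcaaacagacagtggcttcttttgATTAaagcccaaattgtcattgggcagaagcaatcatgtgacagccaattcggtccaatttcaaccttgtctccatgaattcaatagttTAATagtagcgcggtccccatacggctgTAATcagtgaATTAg
Hoxa3: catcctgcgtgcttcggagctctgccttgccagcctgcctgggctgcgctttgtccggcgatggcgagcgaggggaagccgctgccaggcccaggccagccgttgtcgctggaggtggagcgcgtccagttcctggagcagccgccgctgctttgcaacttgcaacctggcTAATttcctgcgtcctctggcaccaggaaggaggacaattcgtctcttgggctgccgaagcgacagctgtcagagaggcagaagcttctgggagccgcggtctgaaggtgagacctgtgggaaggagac
Hoxa5: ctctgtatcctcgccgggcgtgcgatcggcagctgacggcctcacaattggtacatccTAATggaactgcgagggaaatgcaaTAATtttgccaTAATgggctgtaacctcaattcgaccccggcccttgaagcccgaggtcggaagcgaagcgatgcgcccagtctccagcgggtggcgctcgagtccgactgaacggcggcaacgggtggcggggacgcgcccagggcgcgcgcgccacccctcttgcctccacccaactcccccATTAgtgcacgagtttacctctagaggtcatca
Hoxa6: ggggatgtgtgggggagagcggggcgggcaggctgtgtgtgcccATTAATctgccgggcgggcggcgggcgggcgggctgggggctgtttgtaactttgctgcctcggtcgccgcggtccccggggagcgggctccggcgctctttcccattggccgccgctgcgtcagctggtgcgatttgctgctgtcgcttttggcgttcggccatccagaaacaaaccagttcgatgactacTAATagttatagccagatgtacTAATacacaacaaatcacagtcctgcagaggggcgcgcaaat
The core occurred 4 times in the Hoxa2 window, once in that of Hoxa3, and 4 times each in those of Hoxa5 and Hoxa6, where one pair overlaps.

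On either strand, 16 of the 19 windows of Hox genes held TAAT, a share of 84.2%, against 58.0% of all 32851 promoter windows. The HOX-PBX pairing site TGATNNAT was in 4 of the 19 windows (21.1%, those of Hoxa2, Hoxb1, Hoxb8 and Hoxd11), against 8.85% of all windows. A CACCC box, the site of Krüppel-like factors, was in 12 of 19 (63.2%) and in 57.5% of all windows. The MEF2 site, the consensus that MEF2 proteins bind, was in 0 of the 19 windows, against 3.19% of all windows. These are matches of letters in short windows, and no match says only that the letters are not in the window. The windows of Hox genes had a median GC content of 60.3%, against 52.7% for all windows.

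In the Hoxa cluster (mouse chromosome 6), 6 of 8 genes were tested, 4 fell, and all 6 differences were below 0. Hoxa2 (GeneID 15399) patterns the hindbrain and the second pharyngeal arch. Its log2 values were 9.22, 9.03, 9.33, 9.44 and 9.65 in ACDiEKO replicates 1 to 5, against 10.14, 10.21, 10.22 and 10.29 in control replicates 1 to 4. The groups stood apart, and the controls were close to each other. The difference was -0.83 ± 0.11 (SE; 9.38 ± 0.22 in ACDiEKO, 10.22 ± 0.06 in controls, SD, n = 4 each; limma, adjusted p = 0.00265). Leaving out any 1 sample kept the adjusted p between 0.00151 and 0.0112.

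Hoxa3 (GeneID 15400) patterns derivatives of the third pharyngeal arch, among them the thymus and the carotid region. It had 7.47, 7.33, 7.01, 7.09 and 7.51 in ACDiEKO, against 8.01, 7.81, 7.86 and 7.66 in controls. Every ACDiEKO array was below every control array. The difference was -0.58 ± 0.13 (SE; 7.25 ± 0.24 in ACDiEKO, 7.83 ± 0.14 in controls, SD, n = 4 each; limma, adjusted p = 0.0213). The call was lost without ACDiEKO replicate 4 (adjusted p = 0.0634), control replicate 1 (0.0524) or control replicate 3 (0.0542). In the RefSeq annotation the Hoxa3 gene body overlaps those of Hoxa4, Hoxa5 and Hoxa6, and where each cluster's probes lie is not given in the sources used here, so signal may be shared between these genes.

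Hoxa5 (GeneID 15402) patterns the lung and the neck-to-thorax transition and has been reported to keep endothelial cells quiescent. Its values were 9.66, 9.77, 10.44, 9.91 and 10.44 in ACDiEKO, against 10.78, 10.80, 10.64 and 10.87 in controls. ACDiEKO replicates 3 and 5 came closest to the controls, and no array overlapped. The difference was -0.65 ± 0.17 (SE; 10.12 ± 0.37 in ACDiEKO, 10.77 ± 0.09 in controls, SD, n = 4 each; limma, adjusted p = 0.0388). Of the 7 calls it was the least stable: it passed in 9 of 21 alternative settings. It was lost without the averaged ACDiEKO replicates 1 and 2 (adjusted p = 0.0705), ACDiEKO replicate 4 (0.106), or control replicate 1 (0.0797), 2 (0.0842), 3 (0.0648) or 4 (0.0947).

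Hoxa6 (GeneID 15403) belongs to the paralogs used in the thorax. It had 10.14, 9.98, 10.37, 9.81 and 10.39 in ACDiEKO, against 11.42, 11.08, 10.71 and 10.68 in controls. Control replicates 1 and 2 were higher than replicates 3 and 4, and all 4 lay above the ACDiEKO arrays. The difference was -0.81 ± 0.20 (SE; 10.16 ± 0.27 in ACDiEKO, 10.97 ± 0.35 in controls, SD, n = 4 each; limma, adjusted p = 0.0277), and it was lost without the averaged ACDiEKO replicates 1 and 2 (adjusted p = 0.0718), ACDiEKO replicate 4 (0.0731) or control replicate 2 (0.0696).

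The other tested Hoxa genes did not pass. Hoxa4, a gene of the neck region whose body overlaps that of Hoxa3, had 6.68, 6.62, 6.47, 6.56 and 6.68 in ACDiEKO, against 7.06, 6.76, 6.89 and 6.68 in controls. The lowest control array equalled the highest ACDiEKO arrays. Its difference was -0.26 ± 0.10 (SE; unadjusted p = 0.0296, adjusted p = 0.11, limma). Hoxa10, which acts in the lumbar region and the uterus, differed by -0.11 ± 0.07 (SE; adjusted p = 0.308), with overlapping groups.

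In the Hoxb cluster (chromosome 11), 7 of 9 genes were tested and 3 fell, and the neighbours Hoxb5, Hoxb6 and Hoxb7 were those 3. Hoxb5 (GeneID 15413) has been reported to act in vascular progenitors upstream of the VEGF receptor gene Kdr. Its values were 10.10, 10.05, 10.28, 9.66 and 10.40 in ACDiEKO, against 11.90, 11.38, 11.05 and 11.12 in controls. All 5 ACDiEKO arrays lay below all 4 controls, and control replicate 1 was the highest. The difference was -1.26 ± 0.22 (SE; 10.10 ± 0.32 in ACDiEKO, 11.36 ± 0.39 in controls, SD, n = 4 each; limma, adjusted p = 0.00828), and the adjusted p stayed between 0.0123 and 0.0261 when any 1 sample was left out.

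Hoxb6 (GeneID 15414), a trunk gene also used in blood progenitors, had 11.85, 11.71, 12.15, 11.13 and 12.08 in ACDiEKO, against 13.41, 12.93, 12.63 and 13.02 in controls. ACDiEKO replicate 4 was the lowest array and control replicate 1 the highest, as for Hoxb5, and the groups did not overlap. The difference was -1.21 ± 0.25 (SE; 11.79 ± 0.47 in ACDiEKO, 13 ± 0.32 in controls, SD, n = 4 each; limma, adjusted p = 0.0147). With any 1 sample left out the adjusted p lay between 0.0189 and 0.0422.

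Hoxb7 (GeneID 15415), reported to induce the growth factor FGF2 in human tumour cells, had 7.88, 7.86, 7.85, 7.66 and 7.94 in ACDiEKO, against 8.09, 8.30, 8.28 and 8.17 in controls. The groups did not overlap, and both were narrow. The difference was -0.38 ± 0.09 (SE; 7.83 ± 0.12 in ACDiEKO, 8.21 ± 0.10 in controls, SD, n = 4 each; limma, adjusted p = 0.0209). It was lost without control replicate 2 (adjusted p = 0.0506) or 3 (0.055).

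Hoxb8, a gene of blood progenitors and microglia, lay just outside the threshold. It had 7.67, 7.72, 7.99, 7.56 and 7.60 in ACDiEKO, against 9.04, 8.40, 7.96 and 8.42 in controls. Control replicate 3 fell among the ACDiEKO arrays, and the other controls were above all of them. The difference of -0.74 ± 0.22 (SE; 7.71 ± 0.20 in ACDiEKO, 8.45 ± 0.44 in controls, SD, n = 4 each; limma, unadjusted p = 0.00872, adjusted p = 0.0522) passed in 4 of 20 alternative settings. One of them left out control replicate 3 (adjusted p = 0.0266).

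Hoxb2, a hindbrain gene, differed by -0.16 ± 0.09 (SE; limma, adjusted p = 0.272) with only 5 distinct values among the 9 arrays. Hoxb3, reported to act in capillary formation, had 9.61, 9.62, 9.59, 9.38 and 9.81 in ACDiEKO, against 10.54, 9.80, 9.62 and 9.83 in controls, and the groups overlapped (difference -0.35 ± 0.20, SE, adjusted p = 0.255). Both differences rest in part on control replicate 1, the highest array: without it they were -0.16 for Hoxb3 and -0.08 for Hoxb2. The gene body of Hoxb3 overlaps that of Hoxb4. Hoxb9, a gene of the ribs and the lower thorax, was the 1 tested Hox gene with a difference above 0. It had 8.46, 8.46, 8.64, 8.55 and 8.46 in ACDiEKO, against 8.51, 8.47, 8.26 and 8.17 in controls, and did not pass (0.18 ± 0.10, SE, adjusted p = 0.242).

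**Figure D2:**
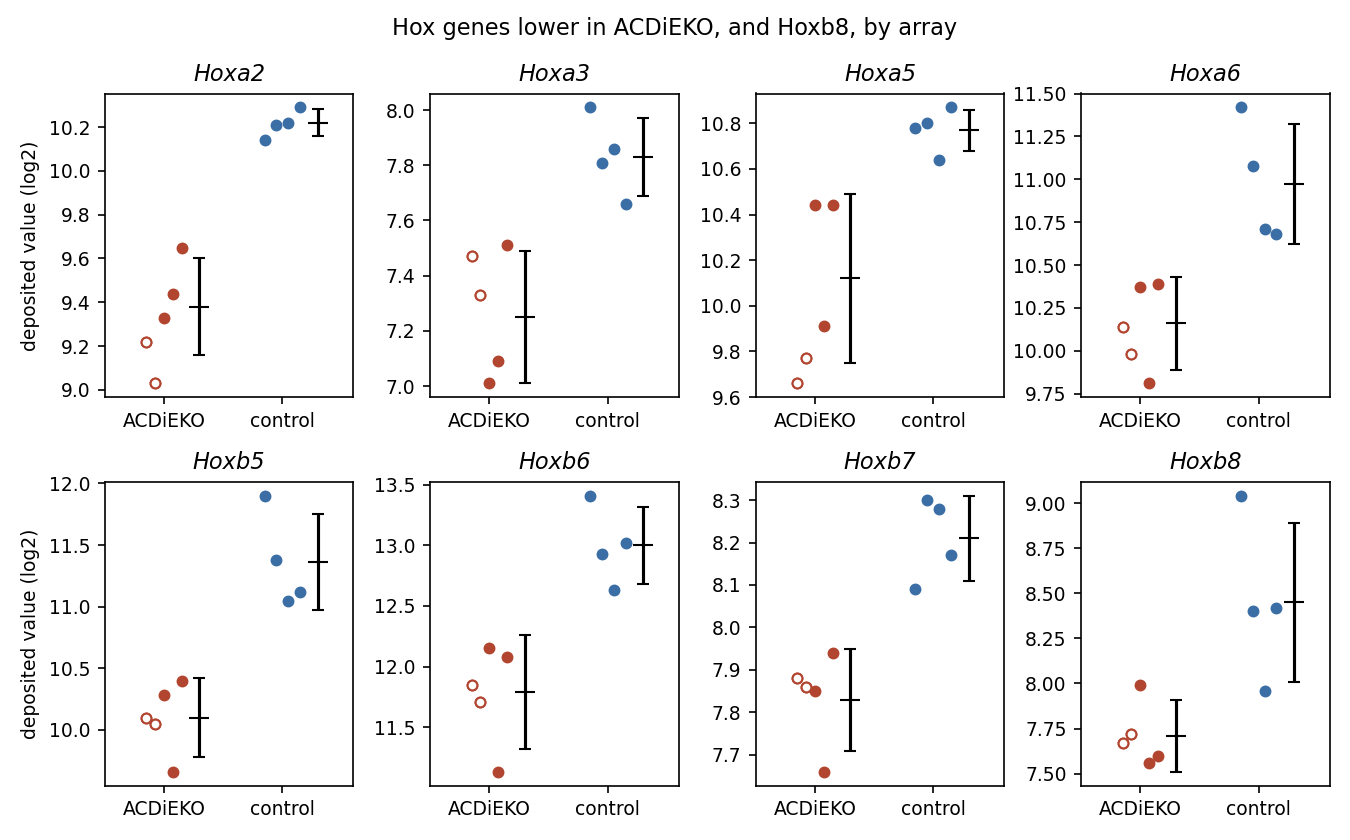
Deposited log2 value of each array (points) for the 7 Hox genes that passed and for Hoxb8, ACDiEKO on the left and control on the right of each panel, with the mean and SD of the 4 samples per group. Open points are ACDiEKO replicates 1 and 2, which were averaged. Only in the Hoxb8 panel do the groups overlap.

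The Hoxc and Hoxd clusters (chromosomes 15 and 2) had 16 genes with a measurement of their own. Of these only Hoxc6, a gene of the thorax and the mammary gland, was tested. It had 6.49, 6.47, 6.57, 6.56 and 6.56 in ACDiEKO, against 6.56, 6.88, 6.56 and 6.42 in controls (difference -0.06 ± 0.10, SE, limma, adjusted p = 0.705). That difference turned to 0.03 without control replicate 2, which was the highest array.

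The 19 genes below the filter were Hoxa11, Hoxa13, Hoxb1, Hoxb13, all Hoxc genes but Hoxc6, and all 7 Hoxd genes. Their values ran from 3.60 to 6.23. The 23 background features of the array ran from 2.83 to 7.52 with a median of 3.64, so these values are of the size that background can give. By the same measure, all arrays of the tested genes Hoxa4, Hoxa10 and Hoxc6, the ACDiEKO arrays of Hoxa3 and ACDiEKO replicate 1 of Hoxb2 lie within the background range. Only Hoxc9 had any array above the filter, 1 of 9, a control. In a fit with no filter their differences ran from -0.13 to 0.14, with adjusted p from 0.262 to 0.964, and 0 of 19 had an unadjusted p under 0.05. A difference in these genes was not detectable at these signals.

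Equal values in several arrays, exact to the last deposited digit, were common in the table: they occurred in 6 of the 14 tested Hox genes, in 13 of the 19 below the filter, and in 47.0% of all tested genes. Such ties are seen above in Hoxb2, Hoxb9 and Hoxc6. Differences of a few hundredths in these genes therefore rest on few distinct values.

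By position along the clusters, the genes that fell had middle and low paralog numbers. Among paralogs 1 to 4, 2 of 5 tested genes fell, with a median difference of -0.35. Among paralogs 5 to 8, 5 of 7 tested genes fell, with a median of -0.74. Over all tested genes 7.33% passed as lower. Of 15 genes of paralogs 9 to 13 only Hoxa10 and Hoxb9 were tested, and neither passed. The others were below the filter, so a fall at high paralog numbers could hardly have been called. Whether the paralog groups differ from each other was not tested.

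Of the 4 clusters that list 2 symbols including a Hox gene, all 4 had differences below 0. One passed, with a difference of -0.62 ± 0.15 (SE) and an adjusted p of 0.0332 in a limma fit of 31745 clusters, in which 6.95% of clusters passed as lower. The others differed by -0.53 (adjusted p = 0.067), -0.37 (0.0697) and -0.25 (0.19). All 4 had values of at least 6.78 in every sample, above the filter, and Hoxd3 and Hoxd4 are among the symbols on them. They name no single gene and are not counted among the members.

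Over the 14 tested Hox genes the median difference was -0.48, against -0.03 over all 16403 tested genes, and 13 of the 14 were below 0, against 54.7% of all genes. The 14 genes are not independent: neighbours share regulatory DNA, and some gene bodies overlap. These counts describe the family and carry no test of their own.

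**Figure D3:**
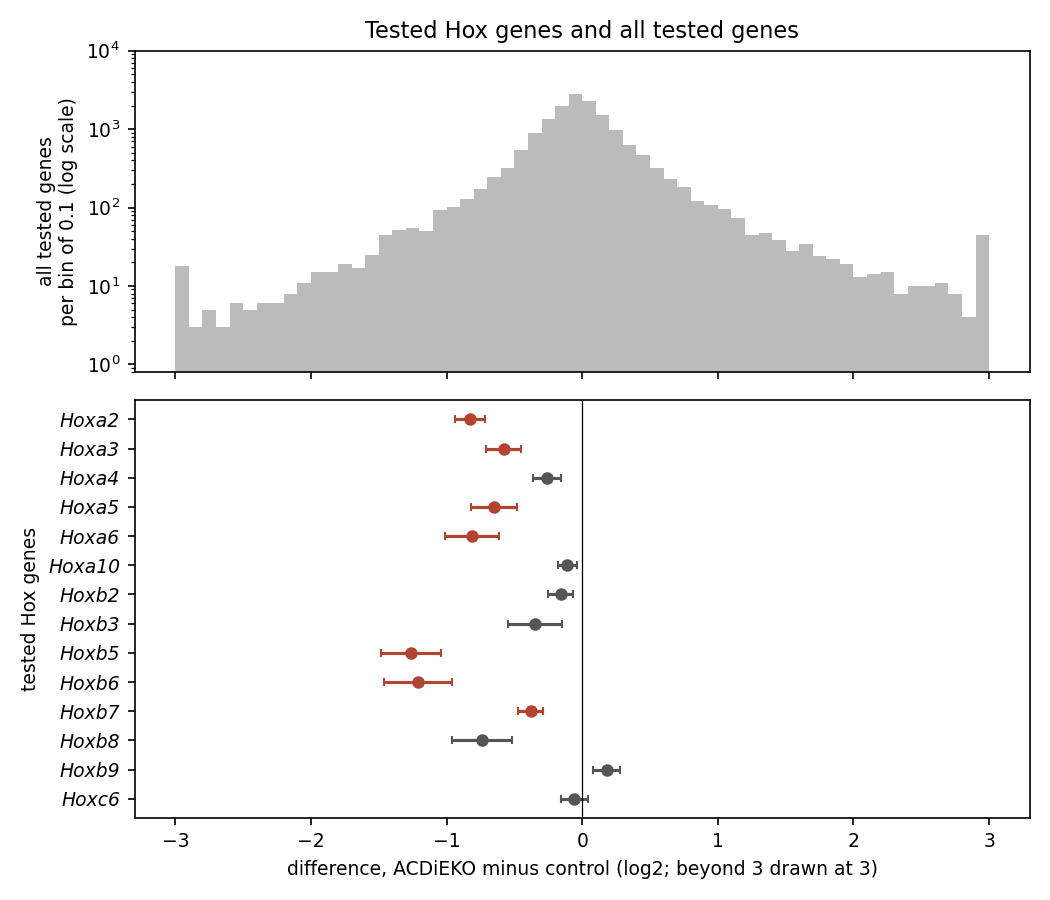
Upper panel, number of all 16403 tested genes per bin of 0.1 in the difference ACDiEKO minus control (log2; logarithmic count axis; values beyond 3 are drawn at 3). Lower panel, the difference of each of the 14 tested Hox genes with its standard error; red marks the 7 genes that passed, at -0.38 to -1.26.

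Averaged over the 7 genes that fell, the samples had 9.43 (replicates 1 and 2), 9.63, 9.24 and 9.77 in ACDiEKO, against 10.53, 10.36, 10.20 and 10.26 in controls. ACDiEKO replicate 4 was the lowest ACDiEKO sample in 4 of the 7 genes, and replicate 5 the highest in 5. Control replicate 1 was the highest control in 4 of the 7. Control replicates 3 and 4 carry animal numbers far from those of the other mice, and without both of them Hoxa3 (adjusted p = 0.0797), Hoxa5 (0.156), Hoxb6 (0.0611) and Hoxb7 (0.116) did not pass, while Hoxb8 did (0.0498).

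Markers of another cell type moved with the groups. The mean of 14 smooth muscle markers was 9.91 (replicates 1 and 2), 9.18, 10.01 and 9.40 in ACDiEKO, against 8.91, 8.49, 8.06 and 8.23 in controls. The groups did not overlap, and 8 of 13 tested markers rose and 0 fell, against 8.92% and 7.33% of all tested genes. At an unadjusted p under 0.05, 10 of the 13 differed, against 32.7% of all tested genes. Acta2, smooth muscle actin, rose by 3.19 (adjusted p = 0.0105) and Tagln by 3.82 (adjusted p = 0.00767), while Myh11, the smooth muscle myosin that defines the mature cell, averaged 7.36 in ACDiEKO and 7.40 in controls (adjusted p = 0.894) and Des was below the filter. All control arrays of Myh11 (7.29 to 7.48) and part of its ACDiEKO arrays lay within the background range, which reached 7.52. Itga8 (-0.47), Cnn1 (-0.27), Myocd (-0.15) and Mylk (0.43) did not pass either. With 1 sample left out, 5 to 8 of these markers passed, with the lowest count without ACDiEKO replicate 4 or control replicate 4, and 0 passed without control replicates 3 and 4 together. Within ACDiEKO, replicate 4 had the highest smooth muscle mean and the lowest Hox mean. That replicate also had the lowest endothelial mean (13.28) and the lowest brown adipocyte mean (7.59) of its group. Within the controls, replicate 1 had the highest smooth muscle mean and also the highest Hox mean.

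With the smooth muscle mean as a covariate, 0 of all genes passed the limma test (1414 had an unadjusted p under 0.05, 5 of them Hox genes). The covariate separates the groups by itself, so it leaves little of the genotype difference to estimate. Hoxb5 then differed by -1.39 ± 0.49 (SE; unadjusted p = 0.024, adjusted p = 0.496). Hoxa2 differed by -0.64 ± 0.23 (unadjusted p = 0.026), Hoxa3 by -0.77 ± 0.28 (0.0278) and Hoxb8 by -1.15 ± 0.44 (0.0346). Hoxa5 differed by -0.13 ± 0.31 (0.686), a value much nearer 0 than without the covariate, and Hoxb7 by -0.16 ± 0.16 (0.359).

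Markers of further cell types were also read. The mean of 8 adventitial fibroblast markers ran from 8.32 to 8.99 in ACDiEKO and from 8.59 to 8.83 in controls, and Serpinf1 rose and Pi16 fell among the 8. At an unadjusted p under 0.05, 4 of the 8 differed, against 32.7% of all tested genes. With this mean as a covariate 7 Hox genes passed. Of 8 tested leukocyte markers 0 passed (1 at an unadjusted p under 0.05), and the mean of the list ran from 6.90 to 9.13 in ACDiEKO, the highest in replicate 5, and from 6.54 to 7.25 in controls. The brown adipocyte mean ran from 7.59 to 10.78 in ACDiEKO and from 9.25 to 11.91 in controls, and the mesothelial mean from 6.71 to 8.97 in ACDiEKO and from 6.30 to 7.47 in controls. Of their 6 and 4 tested markers 0 passed, and 0 had an unadjusted p under 0.05. The Schwann cell mean ran from 5.91 to 6.22 in ACDiEKO and from 6.21 to 6.63 in controls, and S100b, its 1 tested marker, fell. The median difference of the tested markers was 0.90 for smooth muscle, 0.83 for leukocytes, 1.20 for mesothelium and -1.22 for the single Schwann cell marker. It was -0.71 for brown adipocytes, 0.06 for fibroblasts and -0.19 for endothelium. Among 10 endothelial markers 3 rose and 3 fell, with the largest differences in Emcn, a sialomucin of endothelium (3.72, adjusted p = 0.00249), and Cldn5, a tight junction gene (-3.59, adjusted p = 0.00305). Eng (1.53) and Kdr (0.96) also rose, and Tek (-1.92) and Pecam1 (-0.37) also fell. At an unadjusted p under 0.05, 8 of the 10 differed. The smooth muscle mean separated the groups by itself, so the fit with it could not test the part of smooth muscle in the Hox differences. The fibroblast mean averaged markers that moved in both directions, such as Pi16 (-2.41) and Serpinf1 (0.77), and may not follow fibroblast content. The part of the other cell types was not tested.

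**Figure D4:**
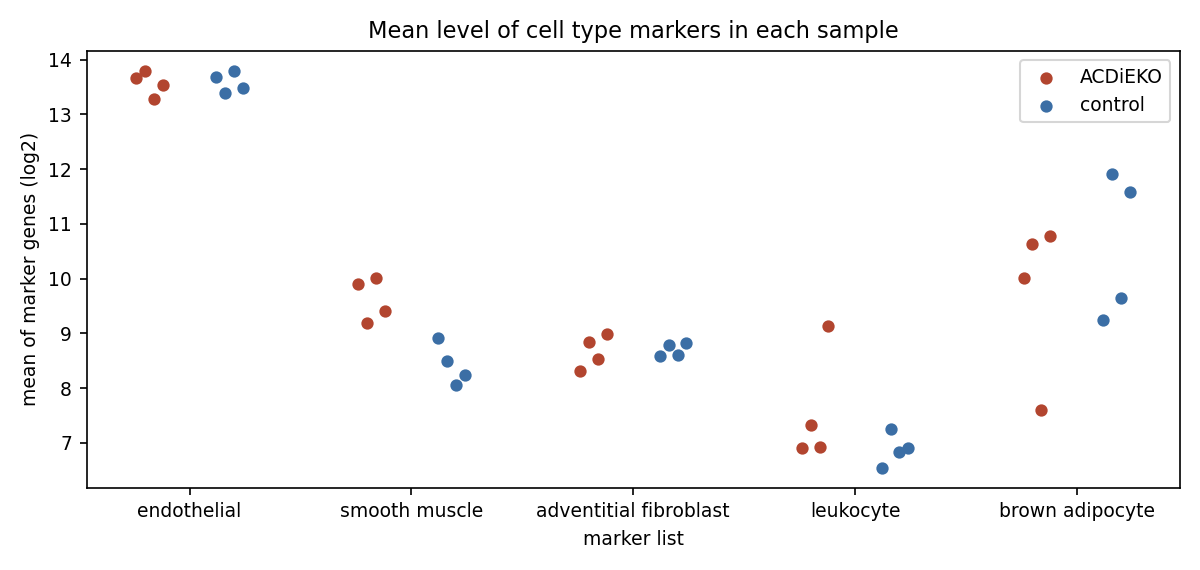
Mean deposited log2 value of the markers of 5 cell types in each of the 4 ACDiEKO (left of each pair) and 4 control samples. The smooth muscle means do not overlap (9.18 to 10.01 in ACDiEKO, 8.06 to 8.91 in controls), whereas the endothelial and fibroblast means do.

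The partners of HOX proteins on DNA differed in both directions. Of 8 measured PBX, MEIS and PKNOX genes, 6 were tested, 2 fell, 1 rose and 3 did not pass, with a median of -0.12. The share that passed over all tested genes was 16.3%. Meis1, a TALE cofactor of HOX proteins and a regulator of blood stem cells, had 8.54, 8.51, 9.08, 8.97 and 8.61 in ACDiEKO, against 9.57, 9.33, 9.97 and 9.75 in controls (-0.86, limma, adjusted p = 0.0138). Meis2, its relative with roles in neural crest and heart, had 11.47, 11.39, 11.84, 11.17 and 11.36 in ACDiEKO, against 12.19, 12.11, 12.87 and 12.41 in controls (-0.94, adjusted p = 0.0155). Both genes stood apart between groups in every array. Pbx3 had 8.75, 8.67, 8.47, 8.53 and 8.35 in ACDiEKO, against 8.11, 7.79, 8.0 and 7.71 in controls (0.61, adjusted p = 0.0101), and rose without overlap. These 3 calls held with any 1 sample left out. They were lost without control replicates 3 and 4 together (adjusted p = 0.101 for Meis1, 0.0842 for Meis2 and 0.0699 for Pbx3), although all directions stayed. Pbx2 (-0.14), Pknox1 (-0.09) and Pknox2 (-0.04) did not pass, and Pbx4 and Meis3 were below the filter.

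Genes of the chromatin complexes that hold Hox patterns did not stand out from the share of all tested genes. Of 15 tested Polycomb genes 1 rose, 2 fell and 12 did not pass, with a median of -0.08, while 16.3% of all tested genes passed. At an unadjusted p under 0.05 (limma), 5 of the 15 differed, against 32.7% of all tested genes. Both counts are near the shares of all genes. Ezh2, the H3K27 methyltransferase of dividing cells, averaged 10.87 ± 0.39 in ACDiEKO and 9.51 ± 0.39 in controls (SD, n = 4 each) and rose by 1.36 (limma, adjusted p = 0.00845). Ezh1, its counterpart in resting cells, averaged 13.34 ± 0.31 in ACDiEKO and 14.06 ± 0.21 in controls and fell by 0.72 (adjusted p = 0.0245). The Ezh1 call was lost without control replicate 1 (0.0583), 2 (0.0556) or 3 (0.0634). Phc3, a subunit of Polycomb repressive complex 1, fell by 0.46 (adjusted p = 0.00623). Of 8 trithorax and H3K27 demethylase genes 0 passed (4 had an unadjusted p under 0.05, against 32.7% of all tested genes), with a median of -0.06, and Kdm6b, an H3K27 demethylase, came closest (-0.62, adjusted p = 0.0522), and 1 of the 8 passed in several of the alternative settings. Gmnn, which restrains DNA replication and binds HOX proteins, rose by 1.40 (adjusted p = 0.000627).

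Of 18 genes upstream of Hox patterns (retinoic acid signalling, the CDX family and the growth factor Gdf11), 12 were below the filter, including Gdf11, Cdx1, Cdx2 and Cdx4. Of the 6 tested genes 1 rose, 0 fell and 5 did not pass, while 16.3% of all tested genes passed. At an unadjusted p under 0.05 (limma), 3 of the 6 differed, against 32.7% of all tested genes. Among the 6 tested, Aldh1a1, a retinaldehyde dehydrogenase that makes retinoic acid, averaged 9.14 ± 0.70 in ACDiEKO and 7.17 ± 0.56 in controls (SD, n = 4 each) and rose by 1.98 (limma, adjusted p = 0.0126). Rarg, a retinoic acid receptor, had 8.47, 8.39, 8.69, 8.17 and 8.68 in ACDiEKO, against 9.46, 9.10, 8.95 and 8.70 in controls. The nearest arrays of the groups were almost equal, and it did not pass (-0.56, adjusted p = 0.0718). Rara differed by 0.00 and the 3 Rxr genes by -0.09 to -0.20, and none of them passed.

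Transcription factors outside the Hox family that mark position in mesoderm and neural crest were mostly below the filter, 15 of 26. Of 11 tested, 3 fell, 0 rose and 8 did not pass, with a median of -0.11, while 7.33% of all tested genes passed as lower. Twist1, a factor of cranial and limb mesenchyme, had 8.48, 8.37, 8.10, 7.85 and 8.55 in ACDiEKO, against 9.24, 9.15, 9.40 and 9.10 in controls (-0.99, limma, adjusted p = 0.00557). The groups did not overlap. Msx1, a homeobox gene of craniofacial and limb tissue, averaged 6.53 ± 0.22 in ACDiEKO and 7.30 ± 0.24 in controls (-0.77, adjusted p = 0.0115). All its arrays but control replicate 2 (7.53) lay within the range of the background features, which reached 7.52. Foxc1, a forkhead factor of arterial development, averaged 7.75 ± 0.23 in ACDiEKO and 8.36 ± 0.17 in controls (-0.62, adjusted p = 0.0167; SD, n = 4 each). Prrx1 (-0.01), Tbx18 (-0.07), Gata6 (-0.22) and Foxc2 (0.00) did not pass.

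Hox clusters also hold microRNA genes, some of which have clusters on the array. The miR-196 family is known to bind the Hoxb8 messenger, and miR-10b lies next to Hoxd4. Mature sequences from RefSeq (GRCm38.p6) are given with the seed, bases 2 to 8, in capitals.
mmu-miR-10b-5p: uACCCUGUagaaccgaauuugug
mmu-miR-196a-5p: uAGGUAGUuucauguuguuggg
The genes Mir196a-1 (in the Hoxb cluster) and Mir196a-2 (in the Hoxc cluster) give the same mature miR-196a-5p. Mir196a-1 differed by -0.53 (limma, adjusted p = 0.321), Mir196a-2 by -0.15 (adjusted p = 0.593) and Mir10b by -0.40 (adjusted p = 0.165), all with overlapping groups. Of 8 measured non-coding and other genes of the clusters 4 were tested and 0 passed, none at an unadjusted p under 0.05, with a median of -0.27. Mir615, in the Hoxc cluster, was below the filter, with 6.0 to 6.32 in ACDiEKO and 5.34 to 5.93 in controls (0.47, adjusted p = 0.103 in the fit with no filter).

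Genes reported elsewhere as targets of HOX proteins in endothelial cells moved in both directions. All 12 were tested, 6 rose, 2 fell and 4 did not pass, with a median of 0.55. Of all tested genes, 8.92% passed as higher and 7.33% as lower. Nos3, the endothelial nitric oxide synthase, averaged 10.95 ± 0.49 in ACDiEKO and 13.19 ± 0.29 in controls (SD, n = 4 each) and fell by 2.25 (limma, adjusted p = 0.00133). Ephb4, a receptor of venous endothelium, fell by 0.73 (adjusted p = 0.00526). Plaur, the urokinase receptor, rose by 2.14 (adjusted p = 0.000436), Plau, urokinase itself, by 1.20 (adjusted p = 0.00317), and Sele, the adhesion molecule E-selectin, by 5.44 (adjusted p = 0.0061). Itga5, a fibronectin receptor subunit, rose by 0.97 (adjusted p = 0.0185). Kdr and Angpt2 passed narrowly (0.96, adjusted p = 0.0315, and 0.64, adjusted p = 0.0491). Kdr was lost without any 1 of ACDiEKO replicates 3 and 4, control replicates 1, 2 and 4, or the averaged replicates 1 and 2 (0.056 to 0.0798). Angpt2 was lost without ACDiEKO replicate 4 (0.126) or 5 (0.0563), without control replicate 1 (0.0998), 2 (0.1), 3 (0.0628) or 4 (0.116), or without the averaged replicates 1 and 2 (0.103). Most of these genes answer to many other regulators, and no relation between them and the Hox values was tested.

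**Figure D5:**
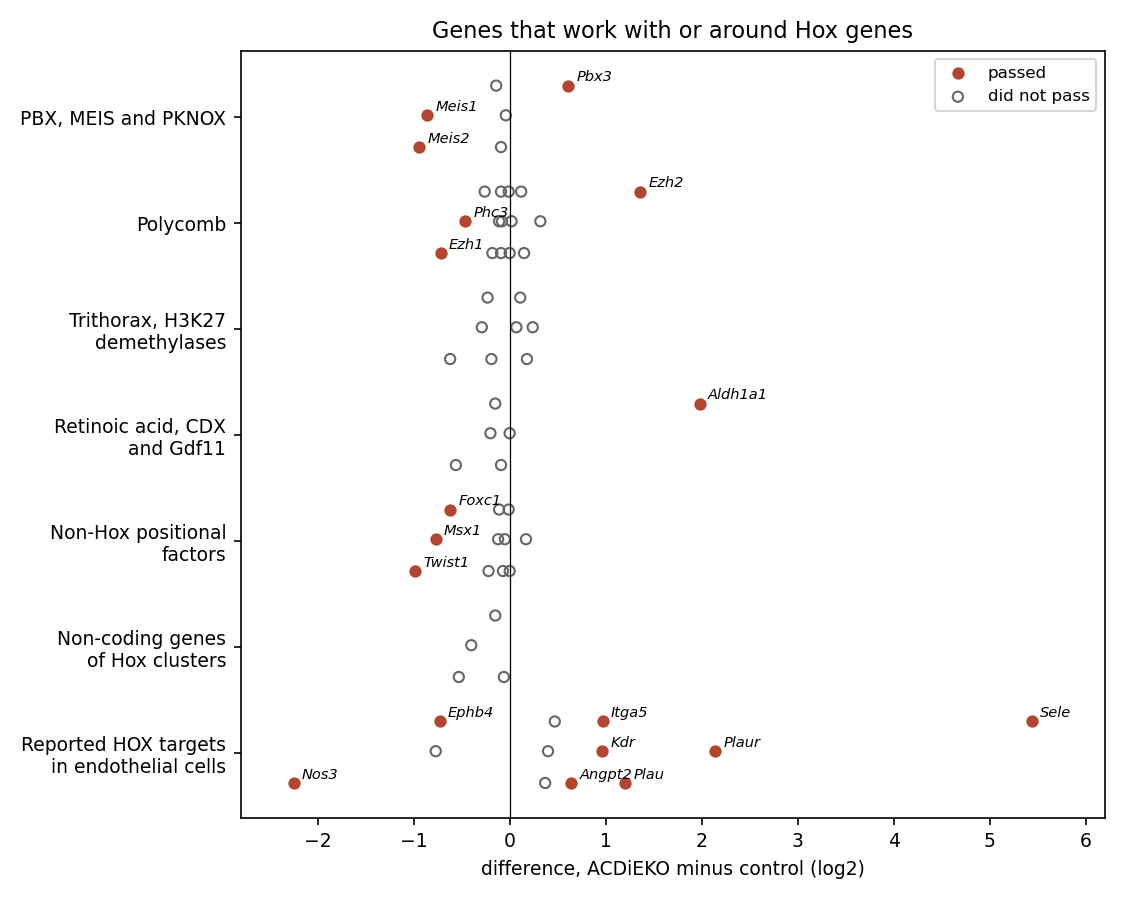
Difference ACDiEKO minus control (log2, horizontal axis) of each tested gene in 7 lists of genes that work with or around Hox genes (rows; vertical offsets within a row only separate the points). Filled red points passed the test and are named; open points did not. Meis1 and Meis2 lie at -0.86 and -0.94 and Pbx3 at 0.61.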

How the data were processed

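Clariom D mouse arrays were run on RNA of 5 ACDiEKO and 4 control aortas. The deposited log2 values were made by the authors with RMA (background correction, normalization and probe summary), per the submitters' processing notes, with no version given. They run from 2.58 to 19.34, beyond the 16 log2 units a 16-bit scanner spans, so an unstated scaling was applied, and differences are given in log2 units and not as folds. The array annotation's genome build is not given in the sources used here, and printed coordinates come from RefSeq (GRCm38.p6).

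Of 72688 features, 6732 array controls were left out. Clusters with 1 symbol (30604; 2146 list several) gave 30142 genes by the brightest cluster per symbol, after 827 symbols were updated through gene IDs. The filter left 16403 genes. Differences (ACDiEKO minus control) were fitted with lmFit and eBayes of limma 3.58.1 (R 4.3.3), two-sided, with Benjamini-Hochberg adjustment over all tested genes and a threshold of 0.05, and every adjusted p comes from limma. The fit was tested on 5 simulated data sets of 16403 genes, each with 200 planted changes. It recovered 79% of planted changes of 1 log2 unit and 97.2% of planted changes of 2, and 5.07% of its calls were false. The number of arrays limits the precision.

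Replicate numbers were checked as a pairing. Same-numbered arrays of the groups had correlations of -0.0049, -0.145, 0.0353 and 0.0413 in their deviations from the group mean, and the numbers were therefore not taken as pairs.

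The members, lists, filter and alternatives were chosen with earlier results of these data known. By the rule for named genes, Hox genes past the threshold, or short of it with an unadjusted p under 0.05, are given with every array. Other Hox genes are given by their difference or range, except that every array is also printed for Hoxb3, Hoxb9 and Hoxc6, chosen after their values were seen. Of each companion list, members past the threshold are named, up to 6 with the smallest p. Other named genes were chosen after their values were seen.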

Additional observations from a re-analysis of the deposited data

Results flagged for a closer look

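In 28 groups of samples (14 tested Hox genes in 2 groups of 4), 1 sample stood apart from its group by a test that chance passes in about 1 group in 20. It was Hoxc6 in the average of ACDiEKO replicates 1 and 2, at 6.48, below the other ACDiEKO samples, which lay between 6.56 and 6.57. Those 3 samples hold nearly equal values, and Hoxc6 did not differ between the groups beyond the spread of the samples (-0.06, limma, adjusted p = 0.705).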

How the results depend on the processing

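Across 21 alternative settings, Hoxa2 and Hoxb5 passed in 20 (limma, adjusted p under 0.05), Hoxb6 in 19 and Hoxa5 in 9 of 21, and Hoxa3 in 15 and Hoxb7 in 14 of the 20 that tested them. Hoxa6 passed in 15 of 21. The 7 differences stayed below 0 in every setting that tested them. The count of Hox genes that passed, 7, was 4 with the replicate block, in which Hoxa5 (adjusted p = 0.0579), Hoxa6 (0.056) and Hoxb7 (0.0551) were lost, although the numbers were not found to mark pairs. It was also 4 without control replicates 3 and 4 together, whose animal numbers are far from the others', in which Hoxa3 (0.0797), Hoxa5 (0.156), Hoxb6 (0.0611) and Hoxb7 (0.116) were lost and Hoxb8 passed (0.0498). Without those 2 controls, Meis1, Meis2, Pbx3, Ezh1, Phc3, Aldh1a1, Twist1, Foxc1, Sele, Itga5 and Angpt2 also lost their calls (adjusted p = 0.0528 to 0.155). The Hox count was 0 with the smooth muscle mean as a covariate, and 4 to 7 with 1 sample left out (4 without ACDiEKO replicate 4 or control replicate 2, and 5 without both ACDiEKO replicates 1 and 2). With all 9 arrays as samples it was 8. The median difference of Hox genes, -0.48, was -0.06 with no filter (33 genes, most of them dim) and -0.81 with the filter at the 75th percentile (8.417; 7 genes). The count over all genes, 2666, was 1127 without those 2 controls, 1692 with a term for the 2 runs of animal numbers, 0 with the smooth muscle covariate, and 1680 (without ACDiEKO replicate 4) to 2465 with 1 sample left out. With all 9 arrays it was 3710. The split of 1463 higher and 1203 lower became 1851 and 960 with arrays centred on their medians and 1970 and 1038 with quantile normalization, while the median of all genes moved to 0.04 and 0.03, against -0.03. Hoxc6 reversed, to 0.03 (adjusted p = 0.813), without control replicate 2, and ran down to -0.12 with another sample left out. The cause of these shifts was not tested. The use of each further cluster of a gene was not run, because no Hox gene had a second one. Signal near the array's background limits the 19 genes below the filter, and also Hoxa4, Hoxa10, Hoxc6 and, in ACDiEKO, Hoxa3. Outside the Hox family it also limits Msx1, Myh11, the control arrays of Plau (6.48 to 6.55) and Angpt2 (6.82 to 7.18), and part of the control arrays of Kdr (6.58 to 7.63) and Aldh1a1 (6.41 to 7.66). In ACDiEKO, replicate 5 of Plau (7.25) and replicates 3 and 5 of Angpt2 (7.18 and 7.40) also lay within the background range.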
